A study of Homo sapiens with 4 samples.

Results

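The genes described here are 54 genes of the extracellular matrix and of the mesenchymal cell state, chosen by symbol from matrix biology: collagens, proteoglycans, matrix glycoproteins, laminins, crosslinking enzymes, matrix proteases and their inhibitors, mesenchymal cytoskeleton genes and transcription factors of the epithelial-mesenchymal transition (EMT). The choice was made with earlier results of these data known, so member shares set beside those of all genes are descriptions. All 54 symbols were found among the 25343 gene symbols listed in each library. The study sequenced RNA from 2 human liver cancer lines, Huh7 and PLC/PRF/5, and asked which genes differ when the fatty acid desaturase SCD1 (gene symbol SCD) is depleted. Each line carried either a lentiviral short hairpin RNA against SCD1 or a non-target control vector, and both arms were selected with puromycin as stably transduced cells, grown in high-glucose DMEM with serum. There were 4 groups of 1 library each (Huh7 control, Huh7 knockdown, PLC/PRF/5 control and PLC/PRF/5 knockdown), so a difference within a line has no replicate check. A single hairpin was used, so effects of the hairpin sequence itself and of SCD loss cannot be told apart.

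The extracellular matrix is the secreted scaffold around cells. Fibrillar collagens form its cables, type IV collagen and laminins form the basement membrane beneath epithelia, and proteoglycans and glycoproteins such as biglycan, SPARC and fibronectin bind growth factors and organise the fibres. Lysyl oxidases crosslink collagen, matrix metalloproteinases (MMPs) and HTRA proteases cut matrix proteins, and tissue inhibitors of metalloproteinases (TIMPs) restrain the MMPs. In liver, fibroblast-like stellate cells make most of the scar matrix, while hepatocytes secrete fibronectin, and vimentin in a liver tumour cell is commonly read as a mesenchymal feature.

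SCD stood at 1755 TPM (a length-scaled abundance, as a share of all transcripts of a library, that allows levels of different genes to be compared) in control Huh7 cells against 137 TPM after knockdown, with 1111 against 178 TPM for PLC/PRF/5, which matches the labels. The 8 hepatocyte markers summed to 29435 and 26425 TPM in the Huh7 libraries and to 4446 and 3166 TPM in the PLC/PRF/5 libraries. The hepatocyte gene TTR was at 0.41 and 0.16 TPM in PLC/PRF/5 against 371 and 312 TPM in Huh7. Among the 8, APOB alone was higher in PLC/PRF/5, at 1780 and 1485 TPM against 1165 and 797 TPM in Huh7. HNF4A was at 122 and 135 TPM in PLC/PRF/5 against 160 and 192 TPM in Huh7. TPM carries no depth, so the precision that depth would give each value is unknown.

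Of the 54 genes, 24 were at 1 TPM or more in all 4 libraries, and 15 were under 1 TPM in all of them. POSTN (periostin) and ACTA2 (smooth muscle actin, the marker of activated stellate cells) were listed at 0 in every library. The 54 genes summed to 3971 and 4274 TPM in the control and knockdown libraries of Huh7, against 1109 and 1416 TPM in those of PLC/PRF/5. FN1, which encodes fibronectin, was the most abundant in each library and made up 36.3% and 26.9% of that sum in Huh7 and 31.4% and 40.1% in PLC/PRF/5. The 2 lines thus had a matrix transcript pool of different size, with fibronectin first in both. In bulk RNA, fewer cells of a kind and less RNA per cell cannot be told apart.

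**Figure D1:**
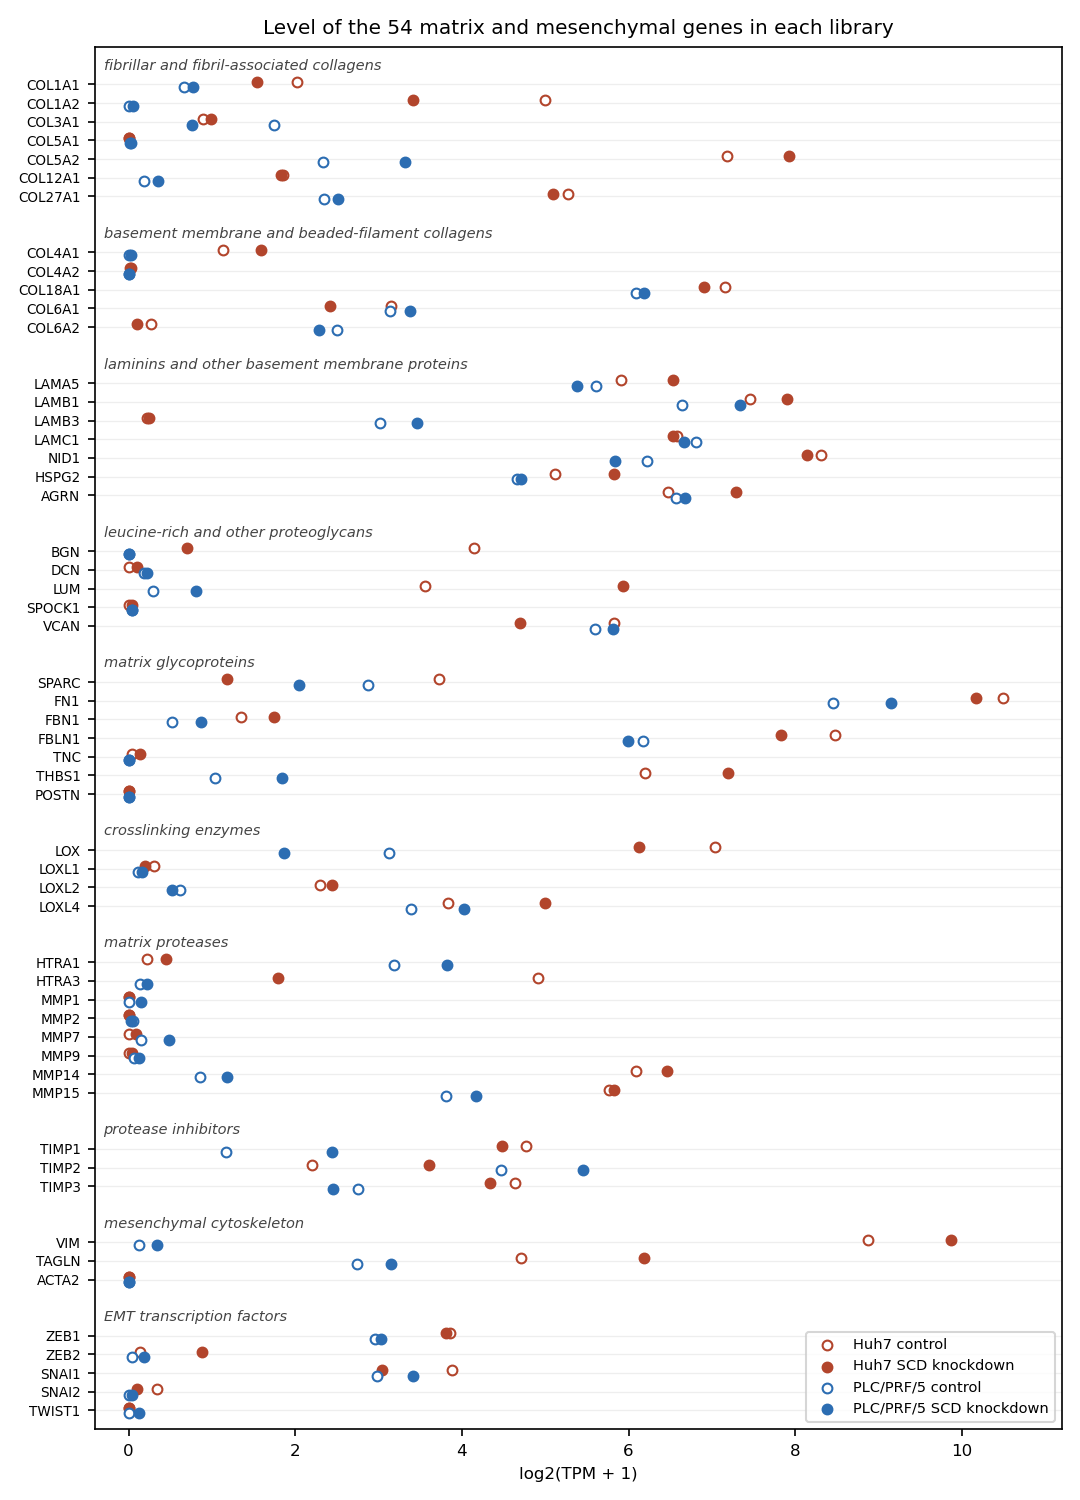
Level of each of the 54 genes as log2(TPM + 1) on the horizontal axis, by role, with open circles for control and filled circles for SCD knockdown libraries (red Huh7, blue PLC/PRF/5, 1 library per circle). Most genes lie further right in Huh7, with VIM the widest gap between the lines, while TIMP2, HTRA1 and LAMB3 lie further right in PLC/PRF/5.

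In Huh7, the knockdown library had lower levels of a small set of secreted matrix genes: BGN, HTRA3, SPARC, COL1A2 and VCAN. Differences within a line are given as log2(knockdown TPM + 1) minus log2(control TPM + 1), which understates the change of low genes, and a pair of TPM values gives the control library first and the knockdown library next. BGN encodes biglycan, a leucine-rich proteoglycan that binds collagen and TGF-beta. It was at 16.8 TPM in control Huh7 cells and 0.63 TPM after knockdown, a log2 difference of -3.44, and was listed at 0 in both PLC/PRF/5 libraries. HTRA3, a secreted serine protease that degrades proteoglycans, was at 29.1 and 2.46 TPM in Huh7, a log2 difference of -3.12. PLC/PRF/5 had HTRA3 at 0.10 and 0.17 TPM. Both genes were thus at their highest in the Huh7 control and at 2.46 TPM or less in the other 3 libraries.

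SPARC, a collagen-binding glycoprotein needed for fibril assembly, was at 12.3 and 1.27 TPM in Huh7, 9.65-fold lower in the knockdown library. In PLC/PRF/5 it was at 6.31 and 3.13 TPM, 2.02-fold lower on the TPM scale, with log2 differences of -2.55 and -0.82. SPARC was lower in the knockdown library of each line. COL1A2, the alpha2 chain of type I collagen, was at 30.9 and 9.63 TPM in Huh7 (log2 difference -1.58) and at 0 and 0.04 TPM in PLC/PRF/5. VCAN, the large hyaluronan-binding proteoglycan versican, was at 55.8 and 25.0 TPM in Huh7 (log2 difference -1.12) and at 47.3 and 55.1 TPM in PLC/PRF/5. Versican was therefore low in 1 library of 4, the Huh7 knockdown.

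Another 6 genes were at least 2-fold higher in the Huh7 knockdown library: LUM, TAGLN, TIMP2, LOXL4, VIM and THBS1. LUM encodes lumican, a leucine-rich proteoglycan of the same family as biglycan, and stood at 10.8 TPM in control cells and 60.0 TPM after knockdown (log2 difference 2.37). It was at 0.23 and 0.75 TPM in PLC/PRF/5. Lumican and biglycan, 2 members of one family, thus differed in opposite directions in Huh7. TAGLN, the actin-binding protein transgelin, was at 25.2 and 71.8 TPM in Huh7, against 5.71 and 7.88 TPM in PLC/PRF/5. TIMP2, which inhibits MMPs and assists the activation of MMP2, was at 3.58 and 11.21 TPM in Huh7, against 21.1 and 43.0 TPM in PLC/PRF/5. Both were higher in the knockdown library of each line.

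LOXL4, a lysyl oxidase-like crosslinking enzyme, was at 13.3 and 30.9 TPM in Huh7, against 9.49 and 15.3 TPM in PLC/PRF/5. VIM, the intermediate filament vimentin, was at 467 and 936 TPM in Huh7, against 0.09 and 0.27 TPM in PLC/PRF/5. THBS1, thrombospondin-1, a glycoprotein that activates latent TGF-beta, was at 72.3 and 146 TPM in Huh7, against 1.06 and 2.57 TPM in PLC/PRF/5. VIM and THBS1 lay just past the 2-fold size rule in Huh7, each with a log2 difference of 1.00, and lay under it (0.92 each) when the libraries were rescaled by median ratios. With a pseudocount of 5, LOXL4 (0.98) and TIMP2 (0.92) also lay under it, beside VIM and THBS1, and 2 genes, LUM and TAGLN, were past it.

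Counted over the list, 6 of the 35 members with at least 1 TPM in a Huh7 library were at least 2-fold higher and 5 were at least 2-fold lower. Across all 13485 genes considered in Huh7 by the same size rule, 3.1% were higher and 1.54% lower. The members' median difference was -0.05, beside 0.08 over all genes considered, and the members past the rule lay on both sides. With median-ratio rescaling, which shifted the median of all genes by -0.08 in Huh7 and -0.10 in PLC/PRF/5, the Huh7 split went from 6 higher and 5 lower (54.5% higher) to 4 and 6 (40.0% higher), LOX joining the lower genes. This size rule is a description of 2 libraries and no test.

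**Figure D2:**
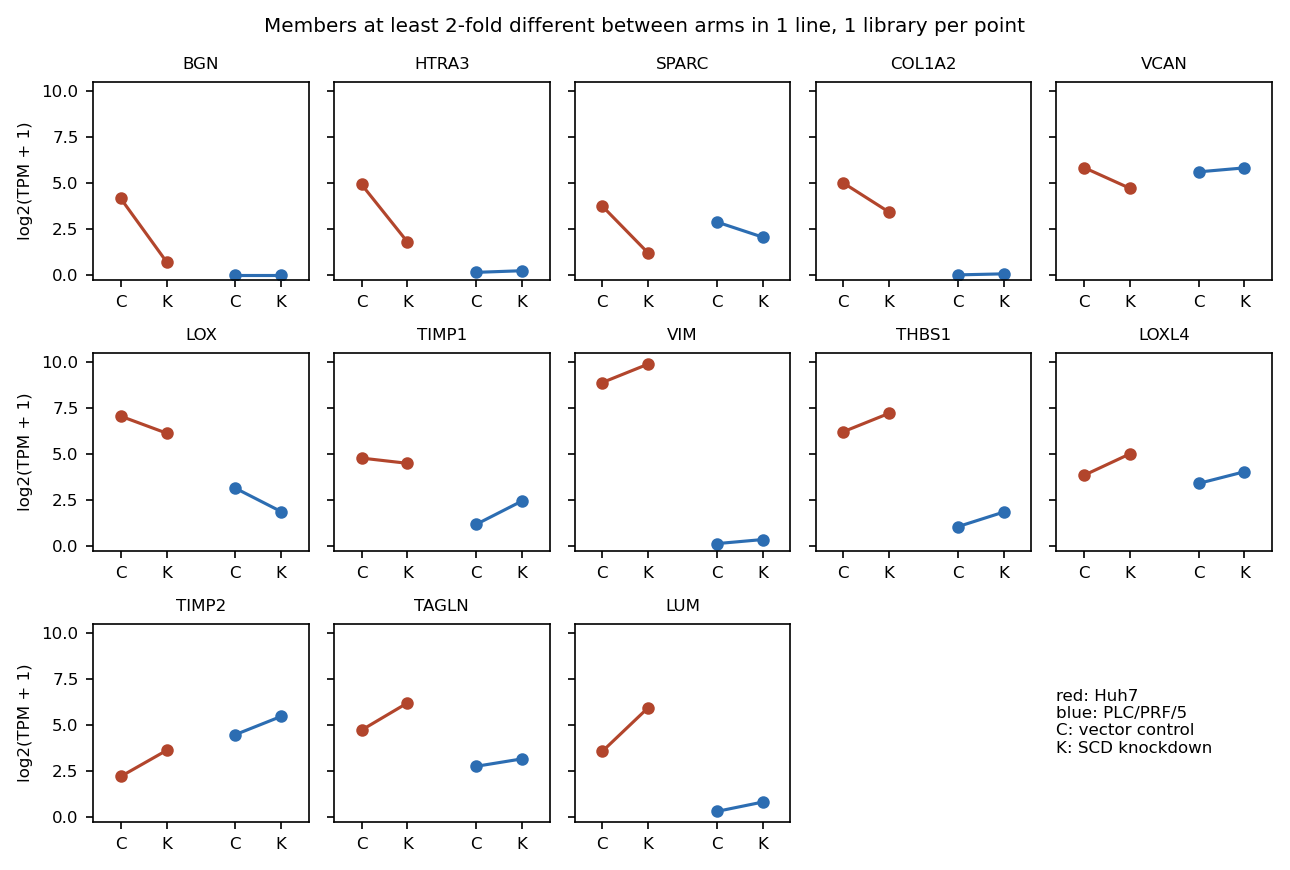
Level as log2(TPM + 1) of the 13 members that differed at least 2-fold between arms in 1 line, ordered by their Huh7 difference, with control (C) and knockdown (K) libraries joined by a line for Huh7 (red) and PLC/PRF/5 (blue). BGN, HTRA3 and COL1A2 slope down in Huh7 from a level that PLC/PRF/5 does not have, while SPARC and LOX slope down and TIMP2 and LOXL4 up in both lines.

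Upstream sequence is shown for the 4 of these 13 genes that have a window in the table with at least 200 bases free of annotated exons: BGN and HTRA3, which were lower in the Huh7 knockdown, and THBS1 and VIM, which were higher. The windows are from RefSeq on GRCh38.p14, read 5′ to 3′ on the gene's strand. Each lies before the transcript start that the table lists for its gene, at chrX:153494730-153494938 (+) for BGN, chr4:8269504-8269753 (+) for HTRA3, chr15:39580829-39581078 (+) for THBS1 and chr10:17227991-17228240 (+) for VIM. The BGN window ends where a GENCODE 29 exon begins. Capitals mark matches, on either strand, to 6 motifs: TATAAA (core of the TATA box), GGGCGG (GC box, bound by SP1), TGANTCA (AP-1), CAGGTG (the E-box bound by ZEB and SNAI factors), GGAATG (TEAD) and TCACNCCAC (sterol regulatory element). Overlapping matches are merged.
BGN: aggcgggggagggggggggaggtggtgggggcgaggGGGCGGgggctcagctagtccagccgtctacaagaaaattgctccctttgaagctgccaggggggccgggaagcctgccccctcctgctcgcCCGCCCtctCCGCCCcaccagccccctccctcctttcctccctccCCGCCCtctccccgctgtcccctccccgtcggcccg
HTRA3: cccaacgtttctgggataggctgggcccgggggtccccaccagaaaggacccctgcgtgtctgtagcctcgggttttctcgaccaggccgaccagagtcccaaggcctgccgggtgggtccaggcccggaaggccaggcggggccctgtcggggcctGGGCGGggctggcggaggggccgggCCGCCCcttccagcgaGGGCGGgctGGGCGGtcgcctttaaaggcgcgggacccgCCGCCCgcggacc
THBS1: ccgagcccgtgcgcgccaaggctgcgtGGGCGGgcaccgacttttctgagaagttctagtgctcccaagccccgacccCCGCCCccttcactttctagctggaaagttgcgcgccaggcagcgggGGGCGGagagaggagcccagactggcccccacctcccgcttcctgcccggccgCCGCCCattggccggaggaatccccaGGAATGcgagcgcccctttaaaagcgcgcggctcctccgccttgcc
VIM: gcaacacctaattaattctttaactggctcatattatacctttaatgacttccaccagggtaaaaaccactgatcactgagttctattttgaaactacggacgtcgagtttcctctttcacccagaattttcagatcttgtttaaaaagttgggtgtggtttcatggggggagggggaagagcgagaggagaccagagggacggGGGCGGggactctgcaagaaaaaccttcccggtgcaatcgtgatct

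The capitals in BGN are 4 GC boxes in 209 bases, and those in HTRA3 are 5 in 250 bases. THBS1 held 4 GC boxes and 1 TEAD motif, and VIM held 1 GC box. None of the 4 windows held the TATAAA, AP-1, ZEB/SNAI E-box or sterol letters. A GC box was present upstream of 30 of the 36 members that have a window in the table (83.3%), and of 46.2% of all 27305 genes with one, but the members' windows were richer in G and C (median 66.8% against 58.0% over all windows). The table's window for SPARC, another lower gene, held 0 GC boxes, but all its 250 bases lie in annotated exons. COL1A2, LUM, TAGLN and TIMP2 were not matched, so the lower and the higher genes were not compared by motif. The E-box letters were upstream of 6 of the 36 members (16.7%) and of 20.6% of all genes. Windows that overlap annotated exons were kept in the member and all-gene shares.

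LOX and TIMP1 were the members past the 2-fold size rule in PLC/PRF/5, 1 in each direction among the 29 considered. Across all 13057 genes considered there, 1.72% were at least 2-fold higher and 1.12% lower. LOX, the lysyl oxidase that crosslinks collagen and elastin, was at 7.76 and 2.63 TPM in PLC/PRF/5 (log2 difference -1.27) and at 131 and 68.6 TPM in Huh7 (log2 difference -0.92). LOX was lower in the knockdown library of each line. TIMP1, the secreted MMP inhibitor, was at 1.25 and 4.42 TPM in PLC/PRF/5 (log2 difference 1.27) but at 26.2 and 21.4 TPM in Huh7. Just short of the rule in PLC/PRF/5 were TIMP2 (log2 difference 0.99), COL5A2 (0.98) and COL3A1 (-0.99). TIMP1 and LOX were low enough there that a pseudocount of 5 brought both under the rule, at 0.59 and -0.74. The members' median was 0.22, beside 0.10 over all genes considered, and was 0.11 after rescaling, beside 0.00.

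Across both lines, no member passed the test for a shared knockdown difference. It was fitted with limma on all 13813 genes with at least 1 TPM in at least 2 libraries, with the line as a block and 1 residual degree of freedom. SCD, the depleted gene, did not pass it either (limma adjusted p = 0.128). A member that did not pass is therefore not shown to be unchanged. Of the 54 genes, 37 entered that fit and 17 did not, among them BGN and COL3A1. The smallest adjusted p among the members was 0.129, for LOX (mean log2 difference -1.10, standard error 0.15) and COL5A2 (0.87, standard error 0.12), each with the same direction in both lines. At an unadjusted p under 0.05 in limma there were 8 members higher (COL5A2, LAMB1, LUM, THBS1, LOXL4, TIMP2, VIM and TAGLN) and 4 lower (NID1, SPARC, FBLN1 and LOX). Over all genes of the fit, 12.7% were higher and 5.24% lower at that level, and 0% and 0.00724% at an adjusted p under 0.05. These p-values reflect how alike the 2 lines moved, since the 1 residual degree of freedom comes from their gap in knockdown difference. Nothing in the labels says the libraries are separate experiments. Of the 8 members higher, LUM and VIM entered the fit through the Huh7 libraries alone and were under 1 TPM in both of PLC/PRF/5. They therefore cannot show a difference shared by both lines.

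By size alone, COL5A2, THBS1, LOXL4 and TIMP2 were higher by at least 0.5 on the log2 scale in both lines, and SPARC and LOX were lower by at least that in both. That is 4 and 2 of the 25 members considered in both lines. Over all 12064 genes considered in both, 3.61% were higher and 1.7% lower by this rule. THBS1 had log2 differences of 1.00 and 0.79, LOXL4 of 1.16 and 0.64, and TIMP2 of 1.41 and 0.99. The sign was the same in both lines for 16 of the 25 members (64.0%) and for 68.8% of all genes. SPARC had a mean log2 difference of -1.69 (standard error 0.43, limma adjusted p = 0.201), TIMP2 of 1.2 (standard error 0.17, limma adjusted p = 0.132) and THBS1 of 0.90 (standard error 0.15, limma adjusted p = 0.147).

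**Figure D3:**
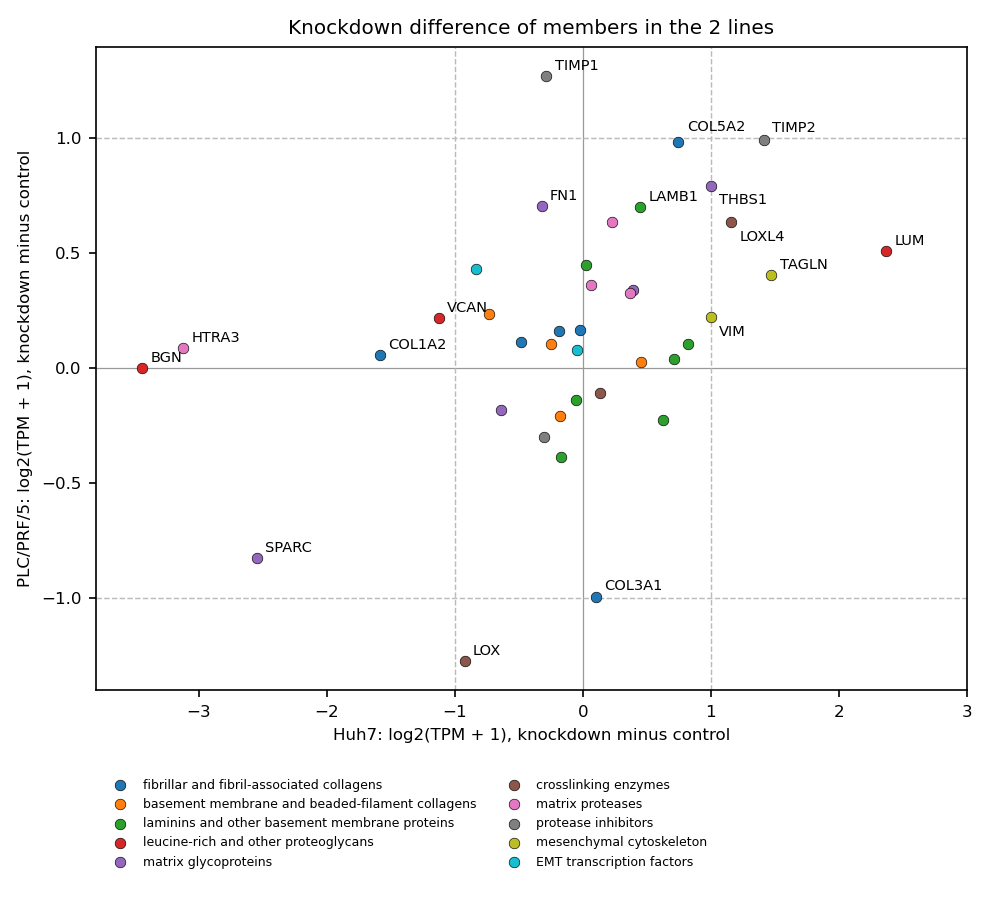
Knockdown minus control difference in log2(TPM + 1) for each member with at least 1 TPM in any library, Huh7 on the horizontal and PLC/PRF/5 on the vertical axis, coloured by role, with dashed lines at 2-fold. BGN and HTRA3 lie far left at about no difference in PLC/PRF/5, SPARC and LOX lie lower left, and TIMP2, THBS1, LOXL4 and COL5A2 lie upper right.

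Among collagen genes, chains of one collagen type stood at unequal levels. Type I collagen is a trimer with more alpha1 than alpha2 chains, yet COL1A2 exceeded COL1A1 10.1-fold in the Huh7 control and 5.07-fold in the knockdown, since COL1A1 was at 3.06 and 1.90 TPM. COL5A2, the alpha2 chain of type V collagen, which sets fibril diameter, was at 144 and 242 TPM in Huh7, against 4.04 and 8.97 TPM in PLC/PRF/5. Its partner COL5A1 was at 0.02 TPM or less in all 4 libraries. COL3A1 was at 0.85 and 0.99 TPM in Huh7, against 2.36 and 0.69 TPM in PLC/PRF/5. COL12A1, a fibril-associated collagen, was at 2.60 and 2.54 TPM in Huh7 and under 1 TPM in PLC/PRF/5, and COL27A1 was at 37.8 and 33.2 TPM in Huh7, against 4.08 and 4.69 TPM in PLC/PRF/5.

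Of the type IV collagen chains, which form the network of basement membranes, the COL4A1 and COL4A2 genes among the members were low. COL4A1 was at 1.19 and 2.0 TPM in Huh7, against 0 and 0.02 TPM in PLC/PRF/5, and COL4A2 was at 0.02 TPM or less throughout. The 2 genes are transcribed head to head on chromosome 13 from RefSeq starts 127 bases apart (GRCh38.p14). COL4A5, a type IV chain outside the members and chosen after its values were seen, was at 14.9 and 22.8 TPM in Huh7, against 5.94 and 9.58 TPM in PLC/PRF/5 (log2 differences 0.58 and 0.61). COL18A1, whose C-terminal fragment is endostatin, was the leading basement membrane collagen, at 142 and 119 TPM in Huh7, against 66.9 and 72.0 TPM in PLC/PRF/5. COL6A1 was at 7.89 and 4.36 TPM in Huh7, against 7.82 and 9.39 TPM in PLC/PRF/5. Its partner COL6A2 was at 0.21 and 0.07 TPM in Huh7, against 4.65 and 3.89 TPM in PLC/PRF/5, so COL6A1 was above 1 TPM in all 4 libraries and COL6A2 in those of PLC/PRF/5. A further type VI chain, COL6A3, chosen after its values were seen, was at 0.02 TPM or less in all 4.

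Laminin and other basement membrane genes apart from LAMB3 were abundant in every library, and no gene of this role was 2-fold different between arms. LAMB1 and LAMC1, the beta1 and gamma1 chains shared by most laminins, differed in pattern. LAMB1 was at 174 and 238 TPM in Huh7, against 98.5 and 161 TPM in PLC/PRF/5, and LAMC1 at 94.9 and 91.5 TPM in Huh7, against 111 and 101 TPM in PLC/PRF/5. LAMB1 was higher in the knockdown of each line (log2 differences 0.45 and 0.70), whereas LAMC1 had differences of -0.05 and -0.14. LAMA5, the alpha5 chain, was at 59.0 and 91.8 TPM in Huh7, against 47.7 and 40.7 TPM in PLC/PRF/5.

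AGRN (agrin) and HSPG2 (perlecan), the heparan sulfate proteoglycans of basement membrane, were higher in the Huh7 knockdown library, at 88.0 and 156 TPM and at 33.7 and 55.8 TPM. In PLC/PRF/5, AGRN was at 93.8 and 101 TPM and HSPG2 at 24.3 and 25.1 TPM, with log2 differences of 0.10 and 0.04 against 0.82 and 0.71 in Huh7. NID1 (nidogen-1), which links laminin to type IV collagen, was at 316 and 281 TPM in Huh7, against 73.7 and 56.1 TPM in PLC/PRF/5. LAMB3, a chain of the epithelial anchoring laminin, reached 7.08 and 10.0 TPM in PLC/PRF/5 but stayed under 0.20 TPM in Huh7. In Huh7, 4 of the 6 genes of this role considered were above 0, with a median of 0.54. In PLC/PRF/5, 4 of 7 were, with a median of 0.04. Over all genes considered, 8115 of 13485 were above 0 in Huh7 (median 0.08) and 8280 of 13057 in PLC/PRF/5 (median 0.10).

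Of the glycoproteins, FN1 differed in opposite directions in the lines. It was at 1439 and 1151 TPM in Huh7, against 348 and 568 TPM in PLC/PRF/5, log2 differences of -0.32 and 0.70. FBLN1 (fibulin-1) was at 355 and 227 TPM in Huh7, against 71.1 and 62.6 TPM in PLC/PRF/5. FBN1 (fibrillin-1) reached 2.34 TPM at most, and TNC (tenascin-C) 0.10 TPM. Of the other proteoglycans, DCN (decorin) and SPOCK1 (testican-1) were at 0.17 TPM or less in all 4 libraries.

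The order of the crosslinking enzymes LOX and LOXL4 differed between the lines. LOX exceeded LOXL4 9.87-fold in the Huh7 control and 2.22-fold in the knockdown. In PLC/PRF/5 the ratio of LOX to LOXL4 was 0.82 in the control and 0.17 in the knockdown, so the balance lay further toward LOXL4 in the knockdown library of each line. LOXL2 was at 3.93 and 4.42 TPM in Huh7 and under 1 TPM in PLC/PRF/5, and LOXL1 was under 1 TPM throughout.

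Of the 6 MMP genes among the members, the membrane-bound MMP14 and MMP15 were the ones that reached 1 TPM. MMP14, which activates MMP2 and cuts collagen at the cell surface, was at 66.9 and 86.8 TPM in Huh7, against 0.81 and 1.27 TPM in PLC/PRF/5. MMP15 was at 53.2 and 55.8 TPM in Huh7, against 13.1 and 17.1 TPM in PLC/PRF/5. The secreted MMP1, MMP2, MMP7 and MMP9 were at 0.40 TPM or less in every library. HTRA1, the paralogue of HTRA3, stood at 8.10 and 13.1 TPM in PLC/PRF/5 against 0.17 and 0.37 TPM in Huh7, the reverse of the HTRA3 pattern between lines. TIMP3, which is held in the matrix, was at 23.8 and 19.2 TPM in Huh7, against 5.74 and 4.48 TPM in PLC/PRF/5, log2 differences of -0.30 in each.

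Of the EMT transcription factors, ZEB1 and SNAI1 were the ones above 1 TPM, and neither differed 2-fold in either line. ZEB1, a repressor of epithelial genes, was at 13.5 and 13.0 TPM in Huh7, against 6.75 and 7.18 TPM in PLC/PRF/5. SNAI1 was at 13.7 and 7.23 TPM in Huh7, against 6.90 and 9.65 TPM in PLC/PRF/5, log2 differences of -0.84 and 0.43. ZEB2 was at 0.10 and 0.84 TPM in Huh7, and ZEB2, SNAI2 and TWIST1 were under 1 TPM in all 4 libraries. In the Huh7 knockdown library VIM and TAGLN were higher, ZEB1 was level, SNAI1 was lower, and ZEB2 was higher but under 1 TPM. Whether these differences are linked was not tested.

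Between the lines, more members were higher in Huh7 than in PLC/PRF/5. In the line coefficient of the same limma fit, which rests on 2 libraries per line that differ in arm, 27 of the 37 members were higher in Huh7 and 4 higher in PLC/PRF/5 at an adjusted p under 0.05. Of all genes of the fit, 28.3% were higher in Huh7 and 31.5% in PLC/PRF/5. Some members entered the fit through 1 line alone, 9 through Huh7 and 3 through PLC/PRF/5, and so had to differ. Among the 24 members at 1 TPM or more in all 4 libraries, 17 were higher in Huh7, 1 (TIMP2) was higher in PLC/PRF/5 and 6 did not pass, where 24.1% and 30.6% of the 11476 such genes passed in each direction.

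The 5 largest line differences toward Huh7 were those of VIM (log2 difference 9.14, standard error 0.22, limma adjusted p = 1.5e-04), THBS1 (5.26), MMP14 (5.25), COL5A2 (4.73) and LUM (4.19). THBS1, MMP14 and COL5A2 had standard errors of 0.15, 0.15 and 0.12, and LUM of 0.46. VIM and LUM were among the members that entered the fit through Huh7 alone, so that they differed was fixed by the filter. VIM was abundant in both Huh7 libraries and at 0.27 TPM or less in both of PLC/PRF/5. Toward PLC/PRF/5 the differences were those of HTRA1 (-3.16, standard error 0.21), LAMB3 (-3.00, standard error 0.21), COL6A2 (-2.21, standard error 0.19) and TIMP2 (-2.06, standard error 0.17), of which the first 3 entered through PLC/PRF/5 alone. The fifth, COL6A1 (-0.47), did not pass (limma adjusted p = 0.200). SPARC had a line difference of -0.00 with a standard error of 0.43, because Huh7 was higher in the control arm (0.86) and lower in the knockdown arm (-0.86).

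Other matrix genes were followed in 6 lists, also chosen with earlier results of these data known. No gene of them passed the across-line limma test. Of the 120 in the fit, 23 were higher and 6 lower at an unadjusted p under 0.05 in limma. These were 19.2% and 5.00%, beside 12.7% and 5.24% of all genes. For the 2-fold counts that follow, the shares over all genes considered were 3.1% higher and 1.54% lower in Huh7, and 1.72% and 1.12% in PLC/PRF/5. Among 45 other matrix proteins, 5 of the 25 considered in Huh7 were at least 2-fold higher and 6 lower, and of 14 considered in PLC/PRF/5 none was. Of these, COL2A1, the main collagen of cartilage, was at 265 and 64.8 TPM in Huh7, against 0.02 and 0.13 TPM in PLC/PRF/5. COL11A1 (17.7 and 3.42 TPM) and COL9A3 (11.7 and 2.18 TPM), which assemble with type II collagen, were also lower in the Huh7 knockdown library. COL9A2 (36.3 and 14.9 TPM) and THBS4 (178 and 48.7 TPM), chosen after their values were seen, were lower too. MATN3 and FMOD of the same list, also chosen after their values were seen, were not lower by 2-fold. MATN3 was higher in the Huh7 knockdown library (46.4 and 102 TPM, log2 difference 1.12), and FMOD was level (12.68 and 12.67 TPM). LAMA3, the alpha chain that pairs with LAMB3, was at 0.64 and 5.72 TPM in Huh7, against 18.1 and 23.2 TPM in PLC/PRF/5.

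Among 26 genes of collagen folding and secretion, BMP1, the procollagen C-proteinase, was at 17.5 and 36.4 TPM in Huh7, and its enhancer PCOLCE at 26.6 and 10.3 TPM. These were the 1 higher and 1 lower gene past 2-fold there among 22 considered, and in PLC/PRF/5 none of 22 was. The prolyl hydroxylase gene P4HA1 had log2 differences of -0.60 and -0.52 in Huh7 and PLC/PRF/5, and LEPREL1 (P3H2) of 0.78 and 0.61. Of matrix receptors, 2 of 18 considered were 2-fold higher in Huh7 and 2 of 20 in PLC/PRF/5, and none was lower. ITGA5, the fibronectin receptor chain, was at 28.2 and 106 TPM in Huh7, against 109 and 110 TPM in PLC/PRF/5. ITGB4, a laminin receptor chain, was at 1.6 and 1.72 TPM in Huh7, against 11.19 and 34.0 TPM in PLC/PRF/5. The hyaluronan receptor gene CD44 had log2 differences of 1.01 and 0.85 and the proteoglycan gene SDC4 of 0.81 and 1.05.

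Of the TGF-beta pathway, the main inducer of matrix genes, TGFB1 was at 65.1 and 21.9 TPM in Huh7, against 29.7 and 21.1 TPM in PLC/PRF/5. Its receptor gene TGFBR2 was higher in both lines (log2 differences 0.82 and 0.92), TGFB2 had differences of 0.83 and 0.48, and the target CTGF of -0.48 and -0.80. Not all genes of that list went with CTGF. TGFBI (0.52 and -0.49) and SMAD7 (0.39 and 0.21), chosen after their values were seen, did not in Huh7. The median difference of the list was 0.28 in Huh7 and 0.01 in PLC/PRF/5, beside 0.08 and 0.10 over all genes considered. TGFB1 was the 1 gene of 20 considered past 2-fold in Huh7, where it was lower, and no gene of that list was 2-fold higher in either line. Among 30 other proteases and regulators, MMP19 was 2-fold higher in both lines, at 0.46 and 3.21 TPM in Huh7 and 0.26 and 2.15 TPM in PLC/PRF/5. SERPINE2 stood at 21.95 and 56.8 TPM in PLC/PRF/5, and ADAMTS9 at 9.62 and 2.97 TPM in Huh7. MMP16 had log2 differences of -0.61 and -0.29.

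A list of 12 epithelial and mesenchymal adhesion genes was followed too. In Huh7, each of the 11 considered was above 0, with a median of 0.95 beside 0.08 over all genes, and 5 epithelial ones were at least 2-fold higher in the knockdown library. EPCAM was at 50.1 and 131 TPM, and the tight junction genes OCLN at 15.2 and 33.7 TPM, CLDN1 at 256 and 536 TPM and CLDN4 at 3.46 and 10.0 TPM. VIM and EPCAM were therefore both higher in that library. Of the 6 considered in PLC/PRF/5, 5 were above 0, with a median of 0.27 beside 0.10 over all genes. Among all genes considered, 8115 of 13485 were above 0 in Huh7 and 8280 of 13057 in PLC/PRF/5. CDH1 (E-cadherin) and CDH2 (N-cadherin), chosen after their values were seen, were at 37.3 and 36.0 TPM in the Huh7 control. They were at 0.25 and 0 TPM in the PLC/PRF/5 control, so that library had little of either cadherin or of vimentin. Whether these levels, and that of TTR, are usual for PLC/PRF/5 was not tested.

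**Figure D4:**
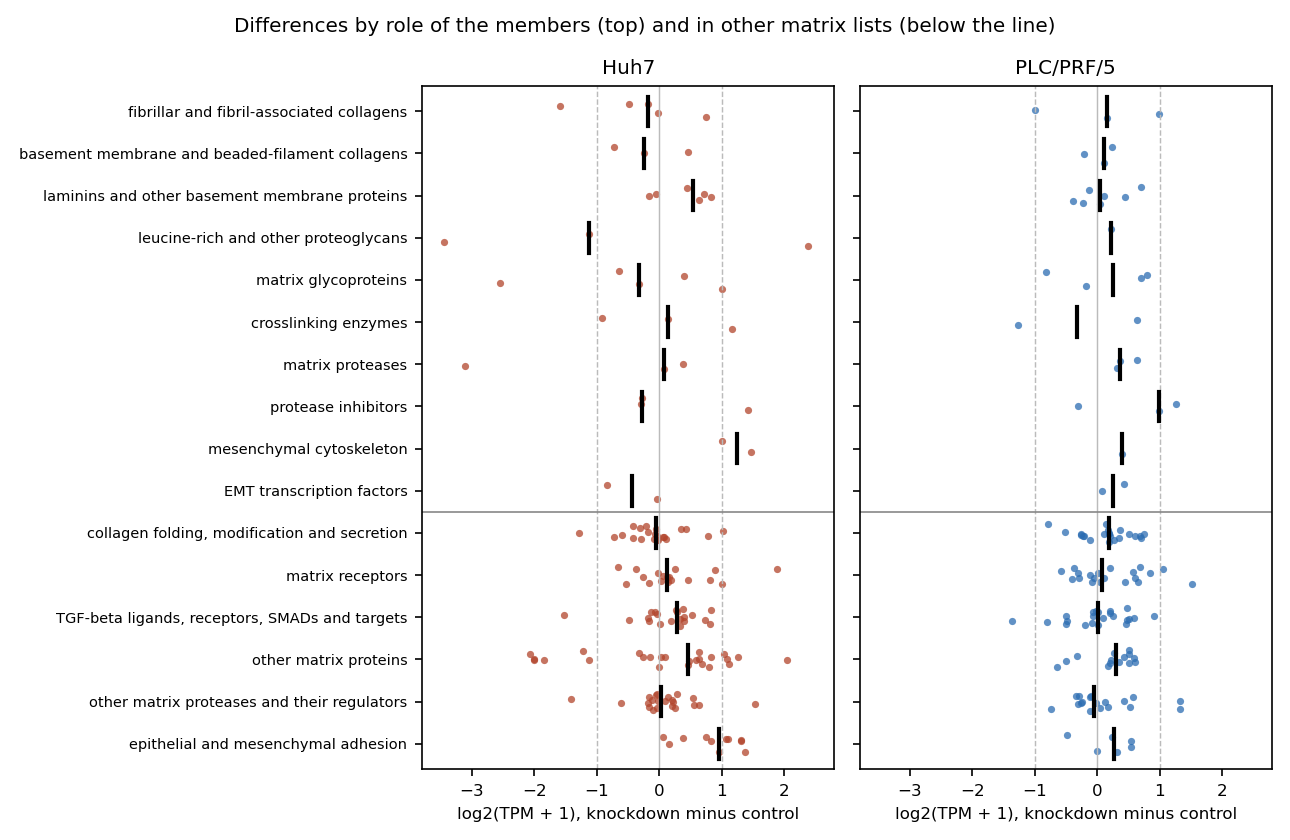
Knockdown minus control difference in log2(TPM + 1) of each gene considered in Huh7 (left) and PLC/PRF/5 (right), by role for the members and by list for the other matrix genes below the horizontal line, with black bars at medians and dashed lines at 2-fold. Proteoglycans and other matrix proteins reach past 2-fold on the left in Huh7, and adhesion genes lie to the right of 0 there.

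Markers of other cell types are given beside these values. The 10 fibroblast or stellate cell markers, 5 of them among the 54 genes, summed to 62.0 and 79.9 TPM in Huh7 and to 3.96 and 2.78 TPM in PLC/PRF/5. Without LUM, the other 9 summed to 51.2 and 19.9 TPM in Huh7 and to 3.73 and 2.03 TPM in PLC/PRF/5, so the higher sum in the Huh7 knockdown library came from LUM. THY1, DCN, DES and LRAT were under 1 TPM in every library. PDGFRA was at 6.15 and 2.32 TPM and PDGFRB at 10.2 and 4.96 TPM in Huh7, lower in the same library as BGN, HTRA3 and COL1A2. Their part in those differences was not tested. The 5 endothelial markers summed to between 1.5 and 3.40 TPM over the 4 libraries, with KDR and TEK listed at 0, and the 5 leukocyte markers to between 11.7 and 27.4 TPM, with CD3E at 0.05 TPM or less.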

How the data were processed

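RNA of 4 cell samples was isolated with TRIzol and sequenced, 1 library per group, per the labels' protocols. The authors deposited 1 table of TPM per library, by gene symbol and rounded to 2 decimals. The tools cutadapt and RSEM 1.2.21 and build hg19 appear by name in the submitters' processing notes, without their order. For aligner, annotation and strand, nothing is stated in the sources used here. RSEM divides reads that match several genes. At most 4.73% of the 31-base words of a member's longest GENCODE 29 transcript occurred in another gene (AGRN). Without strand, reads of genes that overlap on opposite strands, such as LAMA5 with ADRM1 and LAMB1 with DLD, cannot be told apart.

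The members and lists were chosen with earlier results of these data known. Groups were taken from the sample titles. Within a line, log2(TPM + 1) was compared between arms among genes at 1 TPM or more in at least 1 of the 2 libraries, and at least 2-fold differences were counted, with no test. The test was limma 3.58.1 in R 4.3.3, two-sided, with a variance trend, line and arm as terms and Benjamini-Hochberg adjustment over 13813 genes at a threshold of 0.05. It was also run on simulated data with the same changes in both lines. That run does not cover genes whose knockdown differences vary between lines. Values in full are given for members past 2-fold in a line, those with a mean difference of at least 0.5 and the same direction in both lines, the 5 largest line differences each way and the most abundant of each role, with up to 4 genes per other list by mean difference. Alternatives were pseudocounts of 0.1 and 5, a filter at 5 TPM or none, median-ratio rescaling, and fits without the trend, the line or the arm. Upstream windows of 250 bases came from RefSeq, with 36 of 54 members matched by symbol. Tables and figures were made in Python 3.11.15 with matplotlib 3.10.9. The result for 1 gene of the other lists is not reported here.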

Additional observations from a re-analysis of the deposited data

Results flagged for a closer look

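VCAN and TIMP1 were at least 2-fold different between arms in 1 line and had the opposite sign in the other. The log2 difference of VCAN was -1.12 in Huh7 against 0.22 in PLC/PRF/5. That of TIMP1 was -0.28 in Huh7 against 1.27 in PLC/PRF/5. With 1 library per group, the difference between the lines was not tested.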

How the results depend on the processing

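The pair of libraries in each line is joined by the cell line, which the main fit holds as a block. Without that block no member passed (smallest adjusted p = 1), and the number passing was 0 in each direction, as it was in the main limma fit and in the other alternatives run, with the smallest adjusted p of a member between 0.101 (filter at 5 TPM) and 0.424 (no filter) in those. Leaving out a library leaves a line with 1 arm, so the values within each line stand in for it.

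The number of members past 2-fold depended on the pseudocount and on members near the threshold. With a pseudocount of 5, 2 members were higher in Huh7, where LOXL4, TIMP2, THBS1 and VIM lay between 0.92 and 0.996, while 5 were lower as before, and 0 were higher and 0 lower in PLC/PRF/5. With a pseudocount of 0.1, 4 were higher in PLC/PRF/5 (COL5A2, THBS1 and TIMP2 beside TIMP1) and 2 lower (COL3A1 beside LOX). With a filter at 5 TPM, 0 were higher in PLC/PRF/5. With median-ratio rescaling 2 were lower there, again COL3A1 and LOX. The signs of all differences past 2-fold were the same in every alternative run. In the line difference, between 21 and 27 members were higher in Huh7 and 3 or 4 in PLC/PRF/5. LAMA5, LAMB1, HSPG2, LOXL4 and HTRA3 missed the threshold without the arm term, and the causes were not tested. Depth is unknown from TPM, so what depth limits cannot be given.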
